A study of Rattus norvegicus with 6 samples.

Results

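This account covers 6 genes of the bone response to mechanical loading in rats (Rattus norvegicus): the growth factor genes Igf1, Vegfa, Bmp2 and Tgfb1 and the matricellular genes Ccn1 (Cyr61) and Ccn2 (Ctgf). They were chosen by Ensembl gene identifier from a table of 32883 genes, and all 6 were among the 14495 genes that passed the filter on low counts. The identifiers are ENSRNOG00000004517 for Igf1, ENSRNOG00000019598 for Vegfa, ENSRNOG00000021276 for Bmp2, ENSRNOG00000020652 for Tgfb1, ENSRNOG00000014350 for Ccn1 and ENSRNOG00000015036 for Ccn2. The pairing of symbol and identifier came with the selection rule, and no annotation used here pairs such identifiers with symbols, so the pairing was not checked further.

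RNA was sequenced from bone of adult wild-type (WT) rats in 2 groups, 3 animals that had exercised (the series title names treadmill running of moderate intensity) and 3 untreated controls, with the number of rats taken from the series' design text. The labels give osteocyte as the cell type for every library. The labels give no running speed, duration, bone site, sex or age in weeks. The osteocyte label was not checked against marker genes, because the table used here carries identifiers only, and for the same reason receptors, binding proteins and targets of these pathways were not read out.

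Insulin-like growth factor 1 is made by liver and, locally, by bone cells, and it promotes osteoblast survival and matrix production. Vascular endothelial growth factor A drives the growth of blood vessels into bone, bone morphogenetic protein 2 directs mesenchymal progenitors towards osteoblasts, and transforming growth factor beta 1 is laid down in bone matrix in a latent form that resorption can release. CCN1 and CCN2 are secreted, cysteine-rich proteins that bind integrins and growth factors. Their genes are textbook targets of the YAP and TAZ coactivators, which act through TEAD transcription factors and respond to stretch and matrix stiffness.

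No gene of the 6 passed the test for a difference between exercised and control bone, and each had exercised and control animals with overlapping levels. In edgeR's quasi-likelihood fit, with p-values adjusted by the Benjamini-Hochberg method over 14495 genes, 0 of 6 had an adjusted p under 0.05, where the whole table gave 0 genes (0%), and 0 of 6 had an unadjusted p under 0.05, where the table gave 247 genes (1.7%). DESeq2 called 1 gene of the table, ENSRNOG00000061169, which is not among the 6, and 507 genes of the table were at an unadjusted p under 0.05 with that tool. The 3 exercised and the 3 control libraries overlapped in all 6 genes; in 7.37% of the tested genes they did not overlap. Igf1, Vegfa, Bmp2 and Ccn1 had a log2 fold difference below 0 (49.2% of all tested genes did), and Tgfb1 and Ccn2 one above 0 (50.8% did). In bone RNA as measured here, fewer cells of a type and less RNA per cell cannot be told apart.

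The libraries held 14056743 to 18126584 counts. Their main axis of variation, the first principal component of log2 CPM (CPM being counts relative to library size, scaled by TMM factors), took 65.3% of the variance and had exercised replicate 3 (score 116.8) at its upper end and control replicate 3 (score -126.1) at its lower end. The 10 most abundant genes held 16.6% of the counts in exercised replicate 3, the lowest share, and 27.5% in control replicate 3, the highest. Results below are therefore also given without these libraries where that turned a direction.

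**Figure D1:**
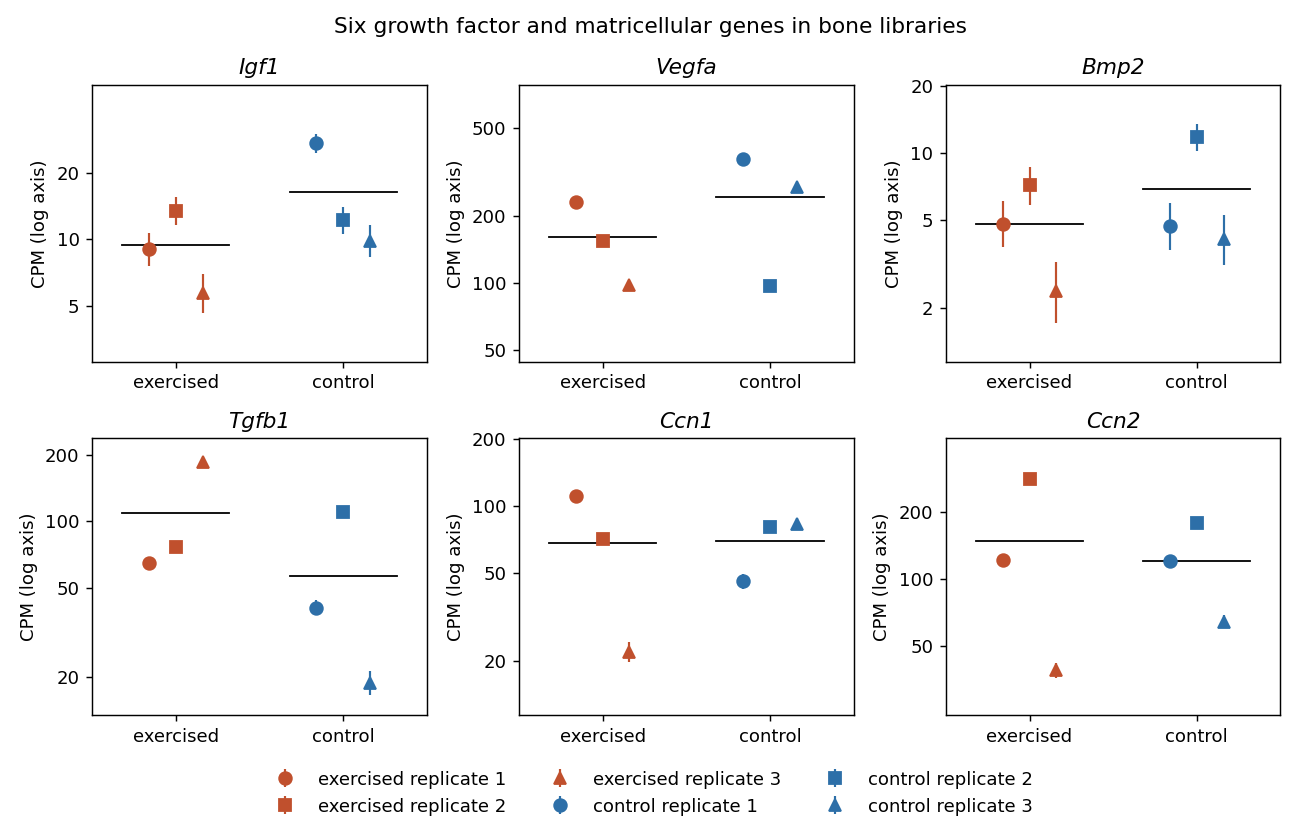
Level of each gene in every library, in CPM on a log axis that spans the same fold in each panel; exercised libraries are on the left, controls on the right, vertical bars are exact 95% Poisson intervals (counting error only, often smaller than the symbol) and horizontal lines are group means. The groups overlap in all 6 panels, and exercised replicate 3 (red triangle) is the lowest library for Igf1, Bmp2, Ccn1 and Ccn2 and the highest for Tgfb1.

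Igf1, the growth factor with the smallest unadjusted p of the 6, was on average lower in exercised bone, within overlapping values. It had 9.04, 13.5 and 5.73 CPM in exercised replicates 1, 2 and 3, and 27.1, 12.2 and 9.87 CPM in control replicates 1, 2 and 3. Control replicate 1 stood above the other 5 libraries, which lay within 5.73 to 13.5 CPM with both groups mixed. The mean was 9.41 ± 3.88 CPM in exercised and 16.4 ± 9.37 CPM in control bone (SD, n = 3 each). On the log2 scale the fold difference of Igf1 was -0.80 (SE 0.51, 95% interval -2.01 to 0.41), with an adjusted p of 0.889 by edgeR. Exercised libraries were the lower ones in 7 of the 9 pairs of an exercised with a control library, and a two-sided exact permutation test of mean log2 CPM gave p = 0.4, where the smallest p that 3 against 3 libraries allow is 0.1. Without control replicate 1 the log2 fold difference of Igf1 was -0.23.

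Vegfa, the main endothelial growth factor, was likewise lower on average in exercised bone without a difference that passed the test. Its level was 231, 154 and 98.0 CPM in exercised replicates 1, 2 and 3, against 363, 97.3 and 271 CPM in control replicates 1, 2 and 3. The controls spanned the whole range of the data, holding both the highest and the lowest library. Means were 161 ± 66.8 CPM in exercised and 244 ± 135 CPM in controls (SD, n = 3 each), a log2 fold difference of -0.60 (SE 0.56, 95% interval -1.94 to 0.74, adjusted p = 0.889 by edgeR). The exact permutation test gave p = 0.6. The size of the Vegfa value rested on single controls: it was -0.19 without control replicate 1 and -0.98 without control replicate 2. The lowest place depended on the scaling: with library size alone, exercised replicate 3 (114 CPM) lay just below control replicate 2 (118 CPM).

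Bmp2, an inducer of osteoblast differentiation, rested on the fewest counts, with 42 in its lowest library (exercised replicate 3) and 201 in its highest (control replicate 2). Its CPM values were 4.82, 7.16 and 2.38 in exercised replicates 1, 2 and 3, and 4.70, 11.8 and 4.10 in control replicates 1, 2 and 3. Replicate 2 was the highest library in each group, and the remaining controls lay between exercised replicates 3 and 1. Counting error alone put exercised replicate 3 between 1.72 and 3.22 CPM and control replicate 2 between 10.3 and 13.6 CPM (exact 95% Poisson intervals). The group means were 4.79 ± 2.39 CPM in exercised and 6.88 ± 4.31 CPM in control bone (SD, n = 3 each). For Bmp2 the log2 fold difference of -0.53 (SE 0.59, 95% interval -1.95 to 0.89) had an adjusted p of 0.889 by edgeR, and an exact permutation p of 0.6. Its direction turned without control replicate 2, to 0.12.

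Tgfb1 had the largest log2 fold difference of the 6 and the widest spread between libraries, 9.84-fold from lowest to highest. Transforming growth factor beta 1 is made by bone cells and also by many blood and immune cells, and platelets store it. Its level was 64.9, 76.3 and 185 CPM in exercised replicates 1, 2 and 3, against 40.9, 110 and 18.8 CPM in control replicates 1, 2 and 3. Exercised replicates 1 and 2 lay inside the range of the controls, exercised replicate 3 above it, and control replicate 3 was the lowest of all libraries. Means were 109 ± 66.1 CPM in exercised and 56.6 ± 47.7 CPM in control bone (SD, n = 3 each). For Tgfb1 the log2 fold difference was 0.94 (SE 0.72, 95% interval -0.79 to 2.66, adjusted p = 0.889 by edgeR), exercised libraries were the higher ones in 7 of 9 pairs, and the exact permutation test gave p = 0.3.

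The order of Tgfb1 across the 6 libraries was the order of the first principal component. All 15 pairs of libraries were ordered the same way by Tgfb1 and by the component score, as they were for 5.97% of the tested genes; Tgfb1 is itself 1 of the genes from which that score was computed. Leaving out exercised replicate 3 and control replicate 3, the ends of that component, gave a log2 fold difference of -0.099 for Tgfb1. Without control replicate 2, the only control with a high value, it was 1.86 at an unadjusted p of 0.0271, and the smallest adjusted p over all alternatives for Tgfb1 was 0.537 by edgeR. Whether the share of marrow or blood cells moved with this component was not tested. The genes most like Tgfb1 in profile were ENSRNOG00000014333 and ENSRNOG00000013783, with root mean square differences of 0.095 and 0.096 in centred log2 CPM over 6 libraries, out of 9223 genes compared.

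**Figure D2:**
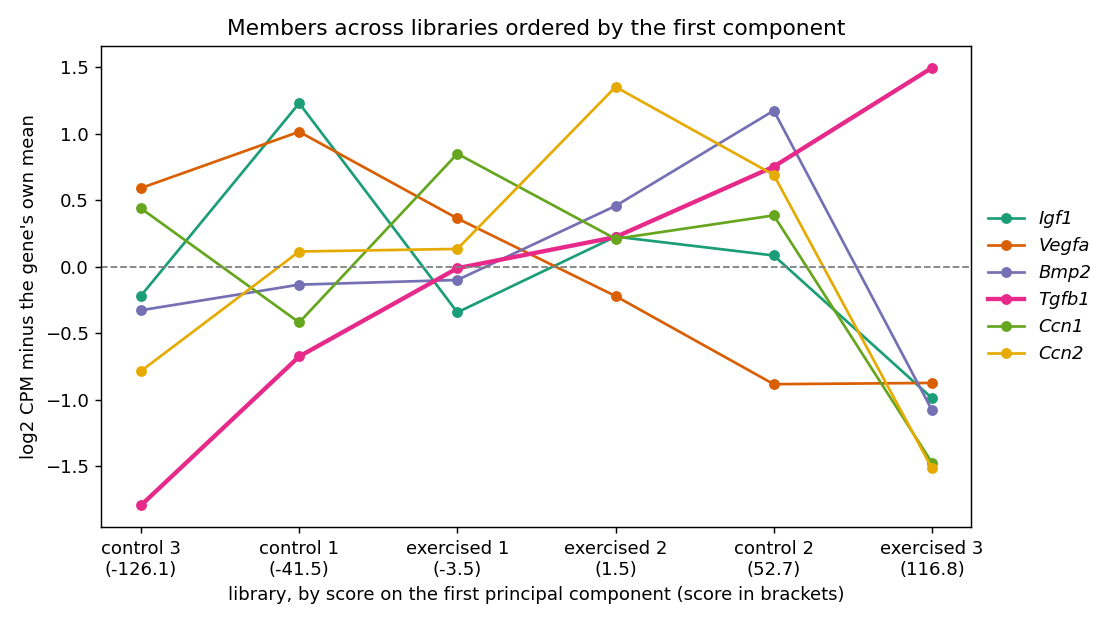
Log2 CPM of each gene minus its own mean over the 6 libraries, with libraries ordered by their score on the first principal component. Tgfb1 (thick line) is higher at each step than at the one before, Vegfa is lower in 3 of the 5 steps, and the other 4 genes are at their lowest in exercised replicate 3.

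The 250 bases before the annotated starts of Ccn1 and Ccn2, as given by RefSeq on assembly GRCr8, are shown because these genes are the textbook TEAD targets among the 6. Capitals mark GGAATG, the core of the TEAD binding motif, or its reverse complement.
Ccn1 (chr2:237225690-237225939, minus strand): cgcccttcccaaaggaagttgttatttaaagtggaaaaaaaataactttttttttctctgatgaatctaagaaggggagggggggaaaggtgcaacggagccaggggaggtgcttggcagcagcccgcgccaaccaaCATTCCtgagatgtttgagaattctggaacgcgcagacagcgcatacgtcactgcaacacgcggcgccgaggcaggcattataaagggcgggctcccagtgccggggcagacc
Ccn2 (chr1:22624615-22624864, minus strand): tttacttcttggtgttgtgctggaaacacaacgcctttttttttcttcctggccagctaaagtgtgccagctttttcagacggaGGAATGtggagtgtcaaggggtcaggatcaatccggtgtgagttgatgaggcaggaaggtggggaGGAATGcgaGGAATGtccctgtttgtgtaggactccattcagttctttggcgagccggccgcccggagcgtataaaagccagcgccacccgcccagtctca

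The Ccn1 stretch held 1 such match, on the opposite strand at -113 to -108 counted from the start, and the Ccn2 stretch held 3, at -166 to -161, -101 to -96 and -92 to -87. Searched on both strands over 33469 promoters of the same length, GGAATG occurred at least once in 12.1% and at least 3 times in 0.0807%. No match lay in the entries of Igf1, Vegfa (2 entries) or Tgfb1; Bmp2 had no entry in the table used. Both CCN stretches also held TATAAA, the TATA box (12.9% of promoters), at -34 to -29 in Ccn1 and -31 to -26 in Ccn2. TGACGT, the core of the cAMP response element (6.95% of promoters), was found in Ccn1 alone among these entries. GGGCGG, the GC box (30.5% of promoters), occurred 3 times before the first Vegfa start, 2 times in Ccn2 and 1 time in Ccn1. The AP-1 site TGANTCA, the hypoxia response core ACGTG and the CArG box were searched in the same way and were found in none of these stretches (6.34%, 16.6% and 1.5% of promoters). No 2 of these matches overlapped. They are matches of letters in a window and say nothing about binding. The motifs were chosen with the sequences in view, so the shares do not measure how unusual a match is.

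**Figure D3:**
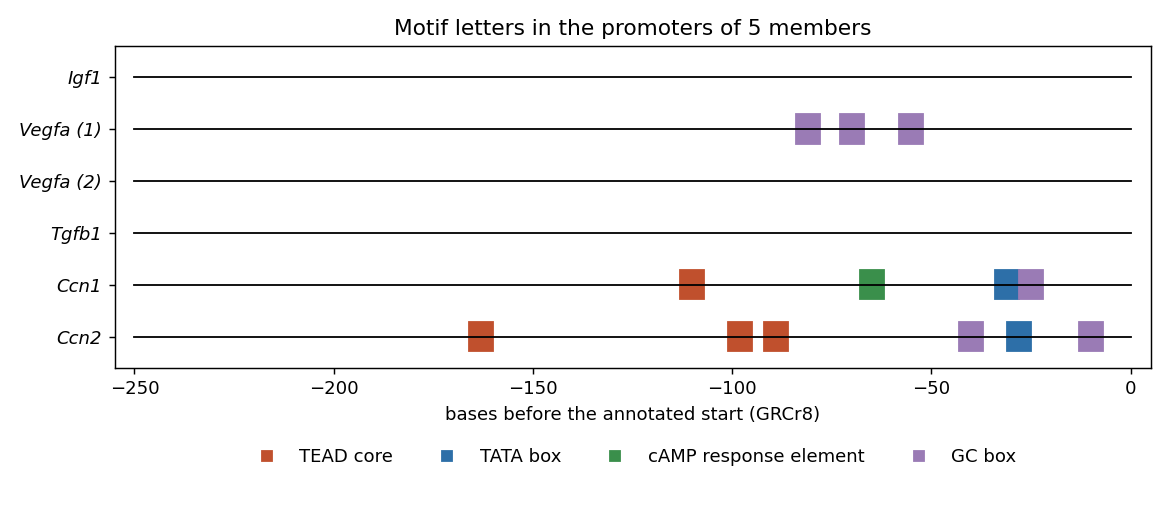
Motif matches in the 250 bases before the annotated starts of 5 of the genes (Vegfa has 2 entries), drawn to scale by distance from the start. Ccn2 carries 3 TEAD core matches and Ccn1 carries 1, whereas the Igf1, Tgfb1 and second Vegfa entries hold none of the motifs searched.

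Ccn1, which encodes an integrin ligand produced by osteoblasts and endothelial cells, had a similar mean CPM in both groups, with a lower mean log2 CPM in exercised bone. It measured 111, 71.0 and 22.0 CPM in exercised replicates 1, 2 and 3, compared with 45.9, 80.3 and 83.3 CPM in control replicates 1, 2 and 3. The exercised libraries held both the highest and the lowest value, and their range of 5.03-fold enclosed the controls, which differed by 1.81-fold. Means were 67.9 ± 44.4 CPM in exercised and 69.8 ± 20.8 CPM in control bone (SD, n = 3 each), with a log2 fold difference of -0.040 (SE 0.58, 95% interval -1.43 to 1.35, adjusted p = 0.992 by edgeR). Mean log2 CPM was 5.80 in exercised and 6.08 in control bone, a difference of -0.27 (exact permutation p = 0.8). The interval covers changes from 0.372-fold to 2.54-fold, so the test does not show that the groups had equal levels. The sign rested on single libraries: the value was 0.38 without exercised replicate 3, 0.073 without control replicate 2 and 0.11 without control replicate 3. It stayed below 0 without exercised replicate 1 (-0.59) or 2 (-0.14) and without control replicate 1 (-0.27), and it was -0.26 both with limma voom and with the replicate block.

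Ccn2, whose product promotes matrix synthesis downstream of transforming growth factor beta, spread even more widely among exercised animals. Its level was 121, 282 and 38.6 CPM in exercised replicates 1, 2 and 3, and 120, 179 and 64.1 CPM in control replicates 1, 2 and 3. As with Ccn1, exercised libraries were both the highest and the lowest of the 6, a 7.32-fold range that enclosed the 2.78-fold range of the controls. The means were 147 ± 124 CPM in exercised and 121 ± 57.2 CPM in control bone (SD, n = 3 each). For Ccn2 the log2 fold difference was 0.29 (SE 0.73, 95% interval -1.46 to 2.04, adjusted p = 0.944 by edgeR). Mean log2 CPM, by contrast, was 6.78 in exercised and 6.80 in control bone, a difference of -0.017 with the opposite sign (exact permutation p = 1). Without exercised replicate 2 the Ccn2 value was -0.64, without control replicate 3 it was -0.016, and with a replicate block it was also -0.016.

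The proportion of the paralogs varied within both groups. The ratio of Ccn2 to Ccn1 counts was 1.10, 3.98 and 1.75 in exercised replicates 1, 2 and 3, and 2.61, 2.22 and 0.770 in control replicates 1, 2 and 3. These ratios are not corrected for transcript length and serve only to compare libraries. In 9 of the 15 pairs of libraries Ccn1 and Ccn2 changed in the same direction. Bmp2 and Ccn2 did so in 14 of 15, with the smallest root mean square difference of any 2 of the genes (0.51 log2 units), and Vegfa and Tgfb1 in 2 of 15, with the largest (1.69). Outside the 6, nearer genes existed. Among genes averaging 10 CPM or more, the nearest lay at 0.19 from Bmp2 and at 0.18 from Ccn2. These are descriptions of 6 libraries that share their scaling, not tests.

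**Figure D4:**
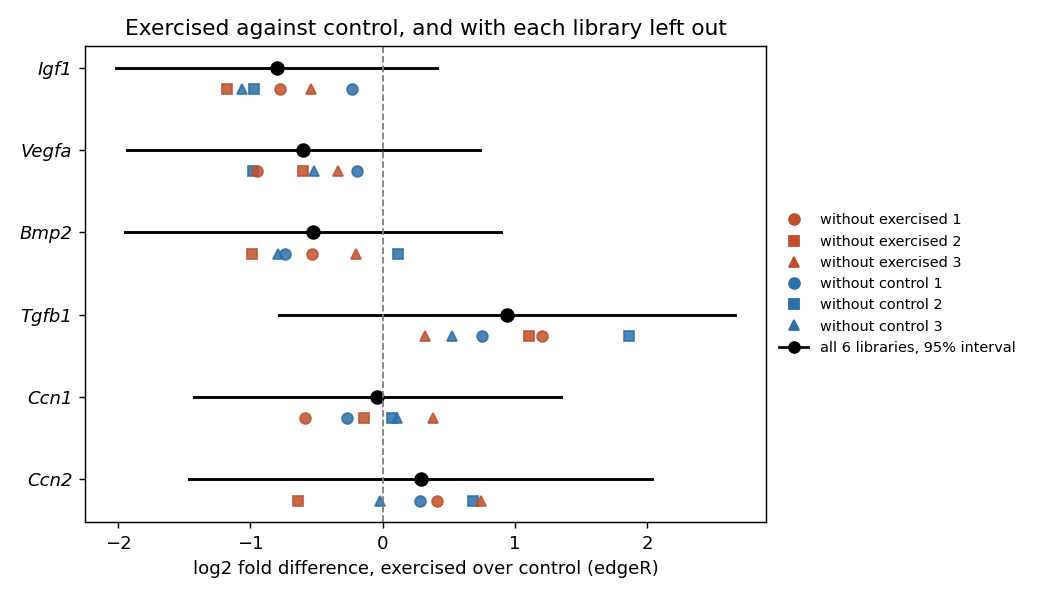
Log2 fold difference of each gene, exercised over control, with its 95% interval from all 6 libraries (black) and the values obtained with 1 library left out (coloured symbols). All 6 intervals include 0, Bmp2, Ccn1 and Ccn2 take both signs when single libraries are left out, and Igf1, Vegfa and Tgfb1 keep theirs.

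In log2 CPM the genes varied more between animals of a group than most tested genes did, with genes of every level compared. The pooled within-group SD of log2 CPM was 0.69 for Igf1, 0.80 for Bmp2, 0.83 for Vegfa, 0.91 for Ccn1, 1.07 for Tgfb1 and 1.15 for Ccn2, against a median of 0.51 over all tested genes. Igf1 lay above 65.0% of the tested genes on this measure and Ccn2 above 85.8%. In 4 of the 6 genes (Vegfa, Bmp2, Ccn1 and Ccn2) the difference between the group means of log2 CPM was smaller than this SD. In Igf1 and Tgfb1 it was 1.06 and 1.07 times the SD. The share of all tested genes with a difference below their SD is not given here, so this count does not set the 6 apart. The median log2 fold difference of the 6 was -0.28, against 0.0092 over all tested genes. The median highest-to-lowest fold over libraries, taken from log2 CPM, was 4.88 in the 6 genes and 2.61 over all tested genes. edgeR also estimates a coefficient of variation within groups, with a trend for genes of like level. From their own counts, Igf1 (0.47 against 0.50) and Bmp2 (0.54 against 0.58) lay below that trend. Vegfa (0.53 against 0.49), Ccn1 (0.57 against 0.44), Tgfb1 (0.70 against 0.45) and Ccn2 (0.71 against 0.47) lay above it. The share of all tested genes above their trend is not given here, so this split does not set the 6 apart from genes of like level.

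**Figure D5:**
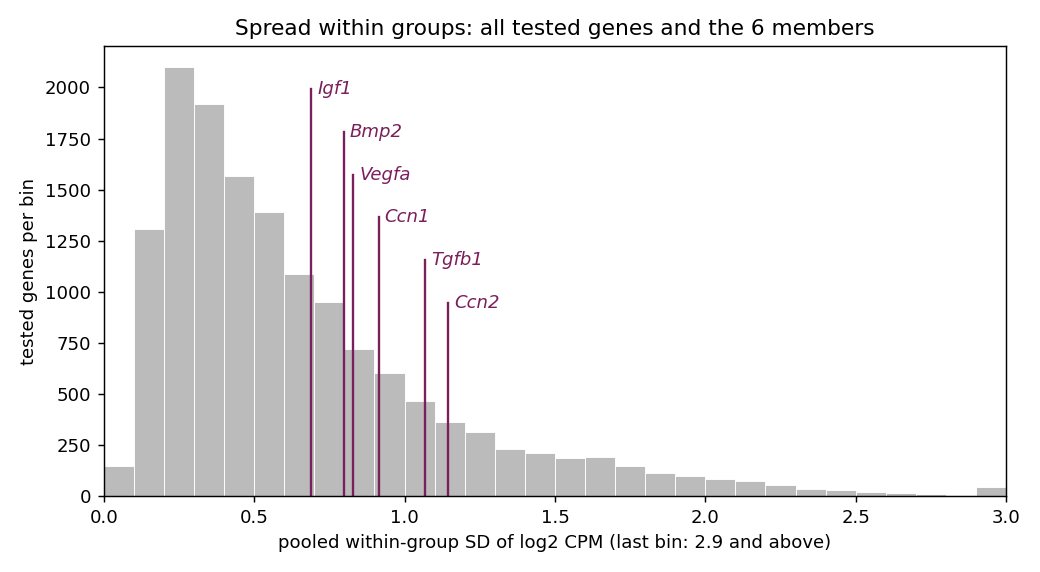
Pooled within-group SD of log2 CPM for all 14495 tested genes (grey bars, bins of 0.1 log2 units) with the 6 genes marked by lines whose height has no meaning. All 6 lie above the median of 0.51.

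Exercised replicate 3 stood apart from the other exercised libraries in most of these genes. It was the lowest of the 6 libraries for 4 of the 6 genes (Igf1, Bmp2, Ccn1 and Ccn2), as it was for 31.3% of the tested genes, and it was the highest for Tgfb1, as it was for 36.9% of the tested genes. It differed by more than 2-fold from exercised replicate 1 in 5 of the 6 genes (40.1% of tested genes) and from exercised replicate 2 in 5 of the 6 (37.9%). Exercised replicates 1 and 2 differed that much from each other in 1 of the 6 (7.17%). Controls also differed among themselves. Control replicate 2 was more than 2-fold from control replicate 1 in 4 of the 6 (21.5%). It was as far from control replicate 3 in 4 of the 6 (37.0%). Control replicates 1 and 3 were that far apart in 2 of the 6 (21.9%). Across pairs of an exercised with a control library, the number more than 2-fold apart ran from 0 to 5 of the 6. The lowest was exercised replicate 2 with control replicate 2 (0 of 6, against 15.2% of tested genes). The highest was exercised replicate 3 with control replicate 1 (5 of 6, against 44.4%).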

How the data were processed

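The authors deposited 1 whole number per gene and library. The column headers say FPKM, but all values are whole and the column totals differ (14056743 to 18126584); for FPKM, sums of this size imply targets averaging only 55.2 to 71.1 nt, so the deposited values were used as counts. The tools named, per the submitters' processing notes, are edgeR, StringTie, HISAT2 2.1.0, fastp 0.19.5 and CASAVA 1.8, along with the human build hg38 and the mouse build mm10. No source used here gives the strand setting, the annotation or the rat build. The 6 columns were assigned through the library names in the labels.

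Genes were kept by filterByExpr (minimum count 10, minimum total 15). With TMM scaling, the quasi-likelihood test of edgeR 4.0.16 (R 4.3.3) was run on 14495 genes and all 6 libraries, with no covariate and an adjusted p threshold of 0.05. The SE was the absolute log2 fold difference over the square root of F, and 95% intervals used the total degrees of freedom of the fit (6.50). A prior count of 2 was added for log2 CPM. Other fits were limma 3.58.1 (voom, and log2(value + 1) unscaled), DESeq2 1.42.0, other scalings, no filter, a replicate block and leaving libraries out. Except for those without the filter or with libraries left out, the fits were tested on simulated data. The simulated counts spread less within groups than the 6 genes did, so that test does not show how the fits perform here. Poisson intervals cover counting error only, and reads without molecular identifiers are not independent molecules. Each group had 3 rats per the series' design text. The edgeR p-values rest on the spread between rats of a group, moderated by that of all tested genes. Within-group pairs of libraries all differed by more than sampling noise (chi-square per degree of freedom at least 66.3).

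The genes, lists and motifs were chosen with earlier results of these data known, the motifs with the sequences in view. The named genes were all 6 members and the 2 genes nearest in profile to the member with the widest spread, taken from those averaging 10 CPM or more. Lists of pathway genes and cell type markers fixed by symbol were not read out, because the RefSeq table used (GRCr8) gave no Ensembl identifiers. It holds the symbols of all 6 members, and promoter entries for 5 of the 6; the build differs or may differ from the one counted on, so promoter coordinates are those of GRCr8 alone.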

Additional observations from a re-analysis of the deposited data

How the results depend on the processing

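Over 15 alternatives, 14 gave 0 genes of the table at an adjusted p under 0.05 and DESeq2 gave 1; none of the 6 genes passed in any. The number of genes at an unadjusted p under 0.05 was 247, and it was 507 with DESeq2, 383 without the filter and 613 without replicate 3 of both groups. With 1 library left out it ran from 54 (control replicate 1) to 1288 (control replicate 2), with 109 without exercised replicate 3. Igf1 and Vegfa kept their direction in all 15 alternatives, with log2 fold differences of -1.17 to -0.23 and -0.98 to -0.19. Bmp2 and Tgfb1 each kept it in 14, and Ccn1 and Ccn2 each in 11. The share of all tested genes that kept theirs is not given here. With 1 library left out the values ran from -0.99 to 0.12 for Bmp2, 0.32 to 1.86 for Tgfb1, -0.59 to 0.38 for Ccn1 and -0.64 to 0.74 for Ccn2. Without replicate 3 of both groups Tgfb1 was at -0.099 and Ccn1 at 0.53. Ccn2 was at -0.0020 with limma on log2(value + 1) and at -0.016 with the replicate block; the cause was not tested.

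The replicate block gave 0 genes at an adjusted p under 0.05 and 212 at an unadjusted one. After removal of group means, same-numbered libraries correlated at 0.31, -0.41 and -0.49 across genes for numbers 1, 2 and 3. In all, 0 exercised and 1 control library correlated best with their own number. With 3 libraries per group these values cannot show whether the numbers mark pairs. The SE fell with the block for Ccn2 (0.73 to 0.40), Bmp2 (0.59 to 0.38), Igf1 (0.51 to 0.45) and Vegfa (0.56 to 0.55). It rose for Tgfb1 (0.72 to 0.91) and Ccn1 (0.58 to 0.74). Other scalings moved the median log2 fold of all tested genes by at most 0.086. Bmp2 had the least depth, with 42 counts in its lowest library.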
